A study of Mus musculus with 10 samples.

Results

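The dual specificity MAPK phosphatases were examined in lungs of wild type (WT) mice and in lung squamous cell carcinomas (SCC) of mice lacking Lkb1 in the airway epithelium. The family was taken as the 10 genes Dusp1, Dusp2, Dusp4, Dusp5, Dusp6, Dusp7, Dusp8, Dusp9, Dusp10 and Dusp16. A probe was assigned to a gene when the accession that the scanner files give for it was paired with that symbol, and the probe with the highest mean over the 10 arrays stood for the gene. By this rule 9 of the 10 genes had a probe, out of 19096 genes with a probe in all, and Dusp5 has no value because its symbol was paired with no probe. The 9 genes had 12 probes, with 3 for Dusp8, 2 for Dusp9 and 1 for each of the other 7 genes.

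MAP kinase phosphatases remove phosphate from both the threonine and the tyrosine of the activation loop of ERK, JNK and p38, and so switch these kinases off. Members differ in the kinase they prefer and in where they reside in the cell, and several are themselves induced by the kinases they act on, which makes them part of negative feedback loops. In epithelial tissue they are studied because ERK drives growth downstream of RAS and growth factor receptors, while JNK and p38 respond to stress and inflammatory cytokines.

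Total RNA was labelled with Cy3 and hybridised to single-colour whole mouse genome oligonucleotide arrays, 1 array for each of 10 samples. The WT group comprised 5 whole lungs of Lkb1f/f mice, and the SCC group 5 whole lung tumors of CCSPiCreLkb1f/f mice. All samples came from mice aged 13 months of the strain given as B6.129 that received no treatment, and both groups carried the floxed Lkb1 alleles. The iCre recombinase was under the CCSP (club cell secretory protein) promoter, which is active in airway epithelium, so the comparison sets a tumor arising from deletion in that epithelium, with the other cells the tumor holds, against a whole lung of many cell types. Nothing in the labels says whether tumors came from separate mice, so p-values measure the spread between these samples. Values are log2 quantile-normalized intensities, differences are SCC minus WT in log2 units, and rose or fell is written where the adjusted p from limma over the 30374 tested probes was below 0.05. Brightness depends on the probe, so levels were not compared between genes.

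The labelled tissue was checked against marker genes. Krt5, a keratin of basal and squamous epithelium, was between 15.60 and 17.70 on the SCC arrays and between 5.29 and 6.63 on the WT arrays, and Trp63, which encodes a transcription factor of the same cells, rose by 7.44. All 9 squamous markers tested rose, all 10 endothelial markers fell, with Pecam1 at -1.60, and 6 of 8 T cell markers fell. The mean over the squamous markers was 11.89 on SCC replicate 2 and at least 15.00 on the other 4 SCC arrays. On SCC replicate 5, 90.2% of spots were well above background, against 71.0% to 74.5% on the other 9 arrays. Xist was at 4.33 on WT replicate 2, 2.27 on WT replicate 3 and 2.58 on SCC replicate 2, whereas the remaining arrays ranged from 13.75 to 14.19. Slide 1 held WT replicates 1 to 4 and slide 3 held SCC replicates 4 and 5, while slide 2 held both groups, with WT replicate 5 beside SCC replicates 1 to 3.

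Of the 9 phosphatase genes, 6 passed the test, where 49.0% of all tested probes did. Dusp4, Dusp8, Dusp9 and Dusp16 rose on the brightest probe of each gene, where 22.4% of all tested probes rose, and Dusp6 and Dusp7 fell, where 26.6% fell. The 2 dimmer probes of Dusp8 fell and the dimmer probe of Dusp9 did not pass, so the direction of these genes depended on the probe. With the mean of all probes of a gene, 3 members rose and 3 fell, and with the brightest probe over the WT arrays 3 rose and 2 fell. Dusp16 and Dusp9 also differed by at least 2-fold, which makes 2 of 9 members where 22.9% of all tested probes did so. Dusp9 is in this count and among the members that rose through a probe that ranked first by its SCC values, and with the brightest probe over the WT arrays 1 member, Dusp16, differed by 2-fold. Dusp16 and Dusp9 were both higher in SCC, where 9.92% of probes were higher by this rule. On the brightest probes 0 members were lower by it, against 13.0% of probes, but both dimmer Dusp8 probes were, at -1.59 and -1.25. The SCC and WT arrays did not overlap for 5 members, namely Dusp4, Dusp7, Dusp8, Dusp9 and Dusp16, where 37.2% of tested probes had no overlap. Dusp9 is in this count too through the probe that ranked first by its SCC values, and on its other probe the groups overlapped. The median difference over the 9 members was 0.27, against -0.090 over all tested probes, but it was 0.12 with the mean of all probes of a gene, 0.084 with slide as a fixed block and 0.43 without SCC replicate 2. Each of the 12 probes exceeded background clearly on every array. In whole tissue, fewer cells of a type and less RNA per cell cannot be told apart.

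**Figure D1:**
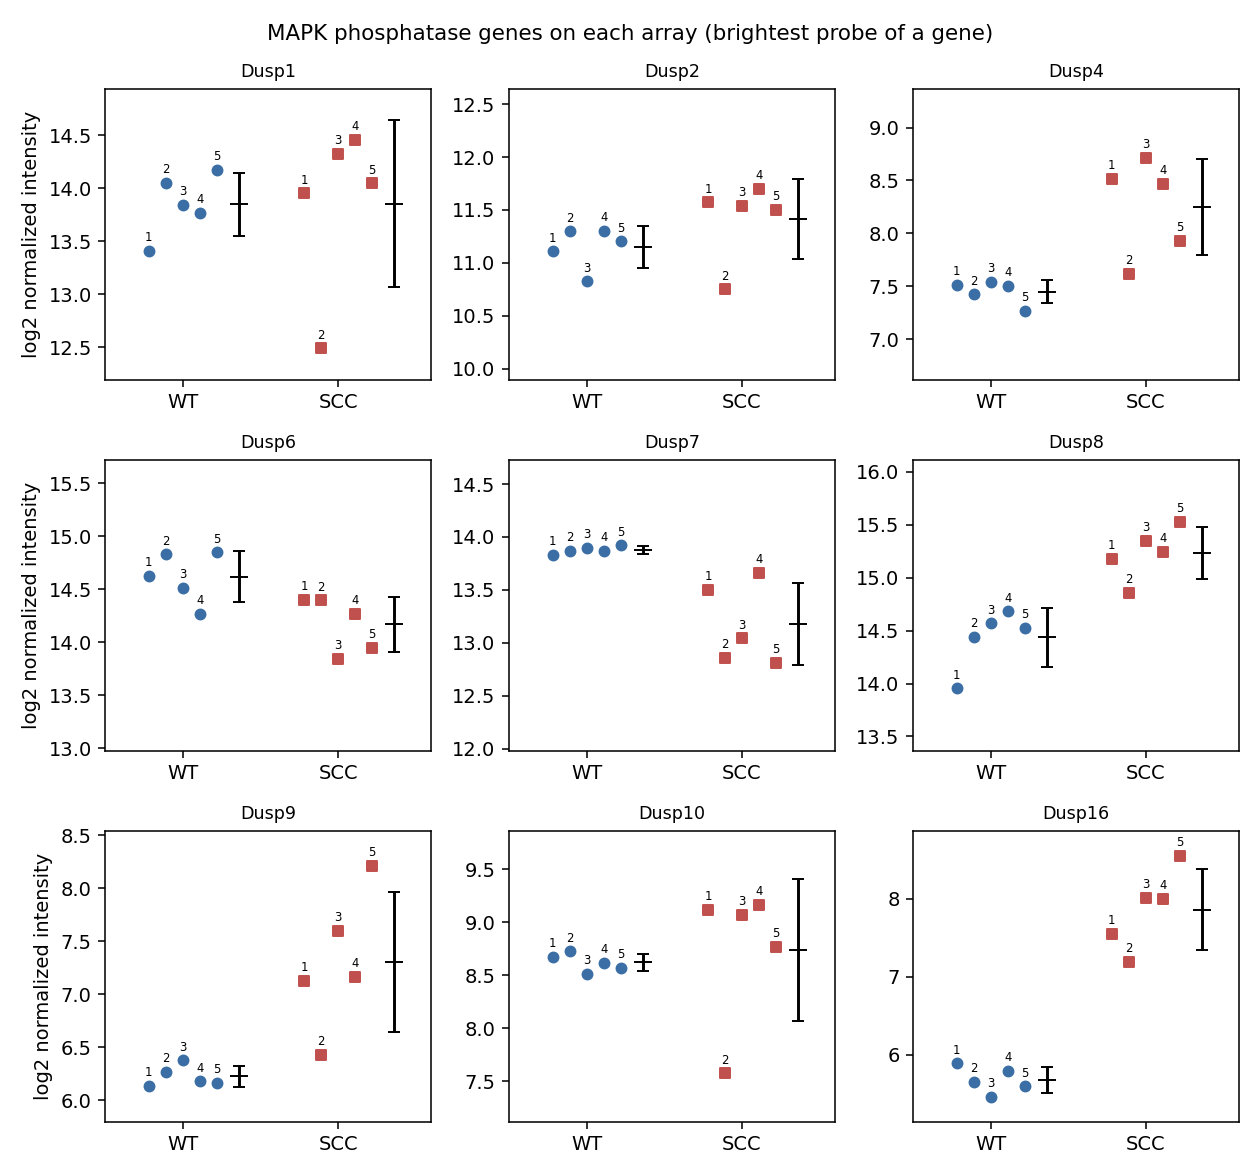
The log2 normalized intensity of 9 MAPK phosphatase genes is plotted for each array, with WT as blue circles and SCC as red squares numbered by replicate, and bars giving the mean and SD of 5 arrays. For Dusp16 every SCC array lies above every WT array, for Dusp7 every SCC array lies below, and SCC replicate 2 is the lowest SCC point for Dusp1, Dusp2, Dusp4, Dusp8, Dusp9, Dusp10 and Dusp16.

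Nuclear inducible phosphatases. Dusp1 (MKP-1) is an immediate early gene whose product acts on p38, JNK and ERK in the nucleus. Its promoter window is shown because it holds a cAMP response element (CRE), which among the 8 members with a window in the RefSeq table (GRCm38.p6) was found in Dusp1 and Dusp8. Dusp4 and Dusp9 were not matched. Each window covers 250 bases before and 50 bases after the annotated start, and 32851 such windows were searched on both strands for the CRE (TGACGTCA), the short CRE site (TGACG, which also lies within the CRE), the AP-1 site (TGANTCA), the CArG box, the E-box (CACGTG) and the GC box (GGGCGG). Matches are in capitals, those on the other strand included, and positions count from the start base as 0. The window of Dusp1 lies at chr17:26508423-26508722 on the minus strand.
Dusp1: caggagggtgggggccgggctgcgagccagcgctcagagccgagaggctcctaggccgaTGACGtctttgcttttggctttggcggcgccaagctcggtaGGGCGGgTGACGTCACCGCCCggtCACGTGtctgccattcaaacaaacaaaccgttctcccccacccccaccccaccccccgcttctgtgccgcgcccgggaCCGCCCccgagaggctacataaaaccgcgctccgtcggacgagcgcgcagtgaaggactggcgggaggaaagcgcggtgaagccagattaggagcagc
The CRE of Dusp1 begins at -143, between GC boxes at -150 and -135, an E-box follows at -126, and a further short site lies at -191. A CRE was present in 1.79% of all windows, a short site in 20.8%, an E-box in 7.15% and a GC box in 35.7%.

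Dusp1 was at 13.41, 14.05, 13.84, 13.76 and 14.18 on WT replicates 1 to 5, and at 13.95, 12.49, 14.33, 14.45 and 14.05 on SCC replicates 1 to 5. The groups overlapped, with SCC replicate 2 below every WT array and SCC replicates 3 and 4 above every WT array. The means were 13.85 ± 0.30 (SD, n = 5) in WT and 13.85 ± 0.79 (SD, n = 5) in SCC, and the difference was 0.0060 with a 95% interval of -0.77 to 0.78 (limma adjusted p = 0.990, exact permutation p = 1). Without SCC replicate 2 the difference was 0.35 and did not pass (limma adjusted p = 0.114), and within slide 2 it was -0.59.

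Dusp2 (PAC-1) encodes a nuclear phosphatase best known from activated lymphoid and myeloid cells. It was at 11.11, 11.30, 10.83, 11.31 and 11.20 on the WT arrays, in replicate order, and at 11.57, 10.75, 11.54, 11.70 and 11.50 on the SCC arrays. SCC replicates 1, 3, 4 and 5 lay above every WT array and SCC replicate 2 below every one. The means were 11.15 ± 0.20 in WT and 11.41 ± 0.38 in SCC (SD, n = 5 each), a difference of 0.27 with an interval of -0.15 to 0.68 that did not pass (limma adjusted p = 0.255, exact permutation p = 0.214). Without SCC replicate 2, Dusp2 passed with a difference of 0.43 (limma adjusted p = 0.00898), in a fit where 58.8% of all tested probes passed, and within slide 2 it was 0.084.

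The mean over the neutrophil markers was likewise lowest on SCC replicate 2, where it was 9.10. The other SCC arrays ranged from 11.36 to 11.58 and the WT arrays from 9.37 to 10.54. Of the 7 neutrophil markers tested 3 rose and 0 fell, and of the 10 macrophage markers 7 rose and 2 fell, with a mean level of 11.21 on SCC replicate 2, 12.30 to 12.49 on the other SCC arrays and 10.79 to 11.28 on the WT arrays. T cell markers moved the other way, with means of 7.35 to 8.05 on the SCC arrays and 8.72 to 9.39 on the WT arrays. The part of these cells in the values of Dusp1 and Dusp2 was not tested.

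Dusp4 (MKP-2), a nuclear phosphatase of ERK and JNK, rose. Its WT values were 7.51, 7.43, 7.54, 7.50 and 7.27, and its SCC values 8.52, 7.62, 8.72, 8.47 and 7.93. The groups did not overlap, and SCC replicate 2 came closest to the WT arrays. From a WT mean of 7.45 ± 0.11 to an SCC mean of 8.25 ± 0.46 (SD, n = 5 each), the difference was 0.80 with an SE of 0.20, or 1.74-fold (limma adjusted p = 0.00875, exact permutation p = 0.00794, the smallest that 5 against 5 arrays can give). Leaving out any single array gave differences of 0.68 to 0.96, all of which passed. The mean over the proliferation markers, of which 9 of 10 rose and 0 fell, was 10.05 on SCC replicate 2, 11.05 to 11.40 on the other SCC arrays and 8.47 to 9.19 on the WT arrays, and its part in the difference of Dusp4 was not tested.

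Dusp5, the remaining nuclear member and an ERK-selective one, has no value here. Its promoter window was the only member window with a CArG box, the binding site of serum response factor, with matches beginning at -82 and -72, where 1.63% of all windows held one.

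Cytoplasmic ERK-selective phosphatases. Dusp6 (MKP-3) is a feedback inhibitor of ERK and a widely used readout of ERK activity. Its window, at chr10:99262981-99263280 on the plus strand, is shown for contrast because none of the 6 motifs was found in it.
Dusp6: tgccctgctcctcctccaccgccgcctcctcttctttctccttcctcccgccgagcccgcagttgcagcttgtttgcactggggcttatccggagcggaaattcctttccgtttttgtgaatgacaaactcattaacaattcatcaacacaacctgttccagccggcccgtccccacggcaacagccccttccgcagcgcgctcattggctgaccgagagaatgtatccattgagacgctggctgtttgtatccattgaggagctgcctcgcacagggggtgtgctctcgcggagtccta
GC boxes were found in the windows of the other 7 members, including Dusp7 at position 14, where 35.7% of all windows held one. The AP-1 site was in none of the 8, where 7.81% of all windows held it. The 8 member windows were 57.3% to 78.7% GC, against a median of 52.7% over all windows. The part of this in the motif counts was not tested.

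Dusp6 fell, with overlap between the groups. It was at 14.63, 14.83, 14.52, 14.27 and 14.85 on the WT arrays and at 14.40, 14.40, 13.84, 14.27 and 13.95 on the SCC arrays. Only SCC replicates 3 and 5 lay below every WT array, and all 5 lay below the WT mean. The means were 14.62 ± 0.24 in WT and 14.17 ± 0.26 in SCC (SD, n = 5 each), and the difference was -0.45 with an SE of 0.16, or 1.36-fold (limma adjusted p = 0.0390, exact permutation p = 0.0397). This was the weakest of the 6 passes. The difference passed in 3 of the 10 fits that left out 1 array, those without SCC replicate 1, SCC replicate 2 or WT replicate 4, and missed the threshold with scaling to the 75th percentile, at -0.35 (limma adjusted p = 0.0837).

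Dusp7 (MKP-X), which acts on ERK in the cytoplasm, fell. Its WT values of 13.83, 13.87, 13.90, 13.87 and 13.92 varied little, whereas its SCC values were 13.50, 12.86, 13.04, 13.66 and 12.81. Every SCC array lay below every WT array, with SCC replicates 2 and 5 lowest. The means were 13.88 ± 0.035 in WT and 13.18 ± 0.39 in SCC (SD, n = 5 each), a difference of -0.70 with an SE of 0.17, or 1.63-fold (limma adjusted p = 0.00712, exact permutation p = 0.00794). Leaving out any single array gave -0.82 to -0.61 and the difference passed each time.

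Dusp9 (MKP-4), the third cytoplasmic member, is best known from placenta, liver and insulin-responsive tissue. The probe with the higher mean over all 10 arrays (A_52_P575658) ranked first through its SCC values, since the other probe was brighter on every WT array, so its difference is in part a product of that choice. On it Dusp9 was at 6.13, 6.27, 6.37, 6.18 and 6.16 on the WT arrays and at 7.13, 6.42, 7.60, 7.16 and 8.21 on the SCC arrays. The groups did not overlap, but SCC replicate 2 lay just above the highest WT array. The means were 6.22 ± 0.099 in WT and 7.31 ± 0.66 in SCC (SD, n = 5 each), a difference of 1.08 with an SE of 0.28, or 2.12-fold (limma adjusted p = 0.00959, exact permutation p = 0.00794). Without SCC replicate 5 the difference was 0.85, still past the test (limma adjusted p = 0.00696) but under 2-fold, and with normexp background correction it was 0.58.

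The other Dusp9 probe (A_52_P648601), dimmer over all 10 arrays, was at 6.40, 6.28, 6.62, 6.49 and 6.53 on the WT arrays and at 6.34, 6.25, 6.13, 6.60 and 5.87 on the SCC arrays. The groups overlapped, with SCC replicate 5, the highest SCC array on the first probe, now the lowest. The difference was -0.23 with an SE of 0.14 and did not pass (limma adjusted p = 0.192), and it was 0.069 with scaling to the 75th percentile. Averaging both probes gave 0.43 (limma adjusted p = 0.0225).

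JNK- and p38-selective phosphatases. Dusp8 (hVH5, M3/6) acts on JNK and p38 and is known mainly from brain and heart. Its window lies at chr7:142095235-142095534 on the minus strand and is shown because it was the only member window with 2 CREs, which begin at -107 and -63.
Dusp8: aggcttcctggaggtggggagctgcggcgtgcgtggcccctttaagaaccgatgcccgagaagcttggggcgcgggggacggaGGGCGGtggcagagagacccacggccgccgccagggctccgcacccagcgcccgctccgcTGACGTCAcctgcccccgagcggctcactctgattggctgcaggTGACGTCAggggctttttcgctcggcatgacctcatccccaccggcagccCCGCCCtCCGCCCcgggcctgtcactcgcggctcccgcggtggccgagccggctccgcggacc
GC boxes begin at -167, -13 and -6 in the same window.

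On its brightest probe (A_52_P336748) Dusp8 was at 13.96, 14.44, 14.57, 14.68 and 14.53 on the WT arrays and at 15.18, 14.86, 15.35, 15.24 and 15.52 on the SCC arrays. Every SCC array lay above every WT array. The means were 14.44 ± 0.28 and 15.23 ± 0.25 (SD, n = 5 each), a difference of 0.80 with an SE of 0.16, or 1.74-fold (limma adjusted p = 0.00313, exact permutation p = 0.00794).

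Both dimmer Dusp8 probes moved in the opposite direction. The first (A_51_P263246) was at 11.44, 11.24, 11.09, 10.92 and 11.39 on the WT arrays and at 9.64, 9.78, 9.61, 9.93 and 9.19 on the SCC arrays, a difference of -1.59 with an SE of 0.16 (limma adjusted p = 4.35e-05). The second (A_51_P114314) was at 10.83, 10.74, 10.50, 10.48 and 10.77 on the WT arrays and at 9.40, 9.40, 9.46, 9.59 and 9.24 on the SCC arrays, a difference of -1.25 with an SE of 0.11 (limma adjusted p = 1.92e-05). On both, every SCC array lay below every WT array, and SCC replicate 5 was lowest where it was highest on the brightest probe. The files give all 3 probes the same accession, and the mean of the 3 fell by 0.68 (limma adjusted p = 0.000164), so no single direction can be given for Dusp8. With slide as a fixed block, which sets WT replicate 5 against SCC replicates 1 to 3 of its slide, the dimmer probes still passed, at -1.71 (limma adjusted p = 0.0142) and -1.35 (limma adjusted p = 0.0106), while the brightest did not, at 0.60 (limma adjusted p = 0.239).

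**Figure D2:**
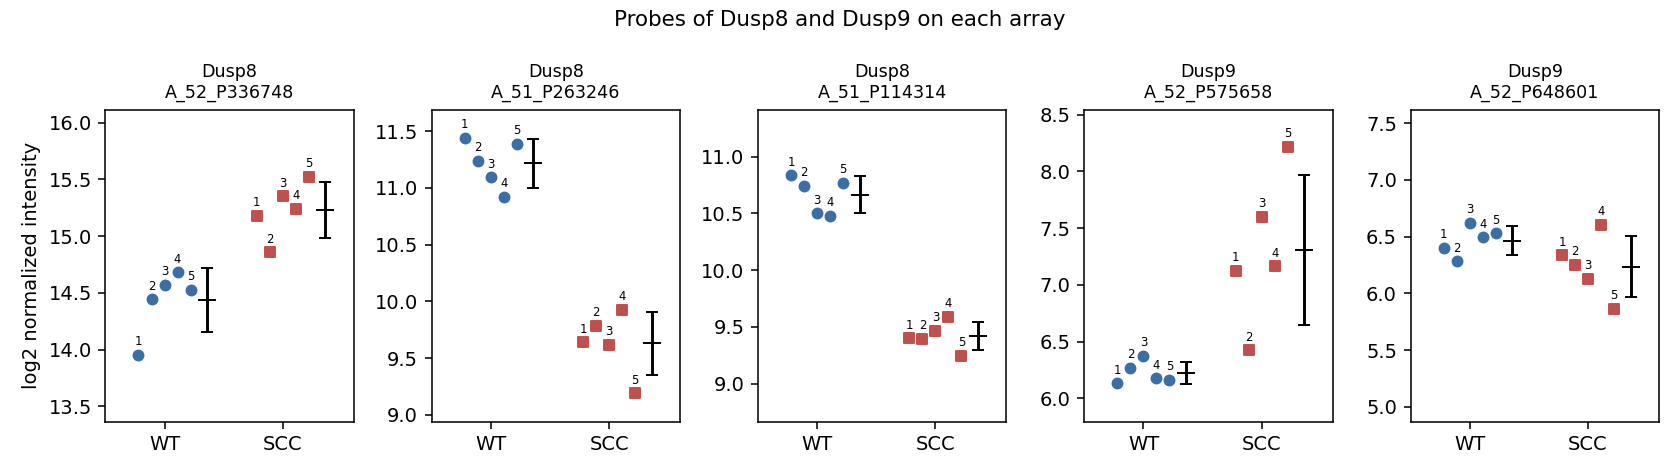
Log2 normalized intensity is plotted for each array (WT blue circles, SCC red squares, numbered by replicate, bars mean and SD of 5 arrays) for the 3 probes of Dusp8 and the 2 probes of Dusp9, each panel on its own axis of about equal span. SCC lies above WT on the brightest Dusp8 probe and below it on both dimmer ones, and the groups overlap on the dimmer Dusp9 probe only.

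Dusp10 (MKP-5) acts on JNK and p38 and restrains cytokine responses. It was at 8.67, 8.73, 8.52, 8.62 and 8.57 on the WT arrays and at 9.12, 7.57, 9.07, 9.16 and 8.77 on the SCC arrays. As for Dusp2, SCC replicates 1, 3, 4 and 5 lay above every WT array and SCC replicate 2 below every one. The means were 8.62 ± 0.083 in WT and 8.74 ± 0.67 in SCC (SD, n = 5 each), a difference of 0.12 with an interval of -0.51 to 0.74 (limma adjusted p = 0.747, exact permutation p = 0.802). Leaving out 1 array gave 0.012, without SCC replicate 4, to 0.41, without SCC replicate 2. Dusp10 passed in the latter fit alone (limma adjusted p = 0.00571), where 58.8% of all tested probes passed. Without SCC replicate 1 or 3 the difference was 0.023 or 0.034, and within slide 2 it was 0.016. Weighting arrays by quality also led both Dusp10, at 0.44 (limma adjusted p = 0.00787), and Dusp2, at 0.44 (limma adjusted p = 0.0137), to pass. In that fit 7721 of all probes passed and differed by at least 2-fold, against 6954 without weights.

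Dusp16 (MKP-7), a phosphatase of JNK and p38 that shuttles between nucleus and cytoplasm, differed most among the 9 members on the brightest probe of each. Its window lies at chr6:134792579-134792878 on the minus strand and is shown because this gene had the largest difference on those probes.
Dusp16: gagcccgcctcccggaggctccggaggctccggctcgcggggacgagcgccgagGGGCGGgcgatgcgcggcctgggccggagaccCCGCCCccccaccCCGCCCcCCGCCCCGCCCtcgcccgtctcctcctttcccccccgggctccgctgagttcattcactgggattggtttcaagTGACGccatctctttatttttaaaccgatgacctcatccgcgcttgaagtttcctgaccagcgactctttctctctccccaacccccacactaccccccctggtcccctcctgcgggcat
It holds 5 GC boxes and a short CRE site at -70, and no full CRE.

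Dusp16 was at 5.89, 5.65, 5.47, 5.79 and 5.60 on the WT arrays and at 7.55, 7.19, 8.02, 7.999 and 8.55 on the SCC arrays. The lowest SCC array, replicate 2, lay above the highest WT array, and the highest was replicate 5, as for Dusp9 and the brightest Dusp8 probe. The means were 5.68 ± 0.17 in WT and 7.86 ± 0.52 in SCC (SD, n = 5 each), a difference of 2.18 with an SE of 0.23 and an interval of 1.67 to 2.69, or 4.54-fold (limma adjusted p = 6.09e-05, exact permutation p = 0.00794). Leaving out any single array gave 2.01, without SCC replicate 5, to 2.35, without SCC replicate 2, and normexp background correction gave 1.20 (limma adjusted p = 9.89e-05). The squamous markers, of which 9 of 9 tested rose, had means of 5.44 to 5.77 on the WT arrays and 11.89 to 15.36 on the SCC arrays. Their part and that of the macrophage, neutrophil and proliferation markers in the differences of Dusp16, Dusp9 and the brightest Dusp8 probe was not tested. Without SCC replicate 5, the array with the most spots above background, these differences were 2.01, 0.85 and 0.72, and all passed.

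**Figure D3:**
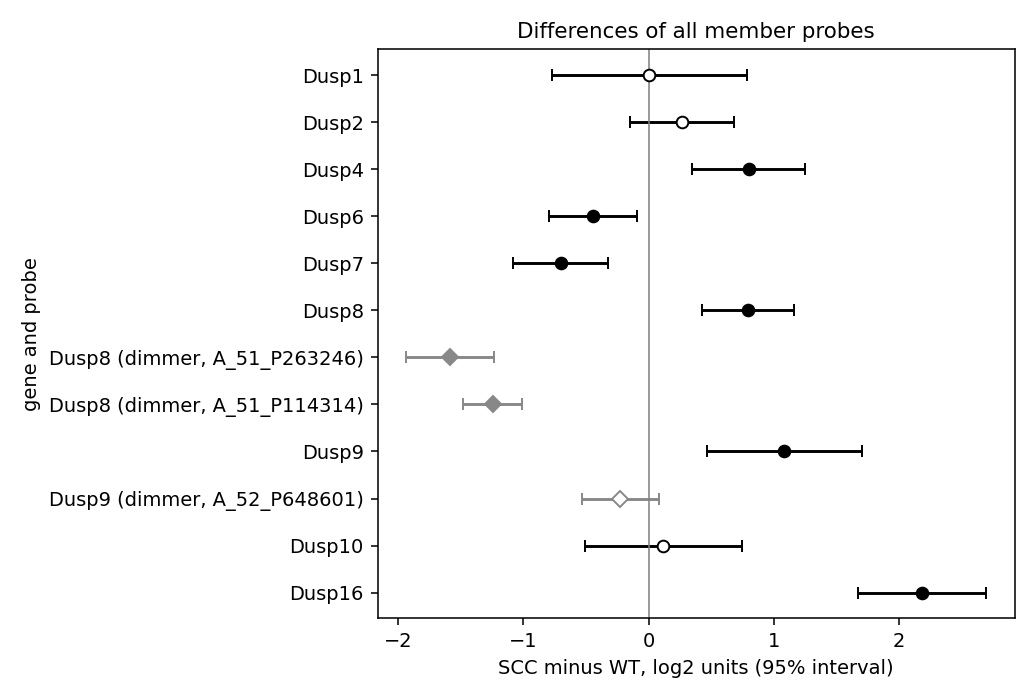
SCC minus WT differences (log2 units) with 95% intervals from limma are drawn for all 12 probes, black circles for the brightest probe of a gene and grey diamonds for dimmer ones, filled where the adjusted p was below 0.05. Dusp16 stands farthest to the right at 2.18, the dimmer Dusp8 probes stand at -1.59 and -1.25, and the intervals of Dusp1, Dusp2, Dusp10 and the dimmer Dusp9 probe include 0.

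WT replicate 5 and SCC replicates 1 to 3 shared a slide, so the slide was also entered as a fixed block. With it the differences were 1.99 for Dusp16, 1.02 for Dusp4, 0.89 for Dusp9, -0.64 for Dusp6 and -0.79 for Dusp7. Only Dusp16 (limma adjusted p = 0.0133) of the 9 members then passed, in a fit where 12.6% of all tested probes did. The adjusted p was 0.134 for Dusp4, 0.168 for Dusp7, 0.198 for Dusp6 and 0.262 for Dusp9 (limma). The brightest probes kept their direction except for Dusp1. The block leaves WT replicate 5 as the only WT array set against tumors of its own slide.

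**Figure D4:**
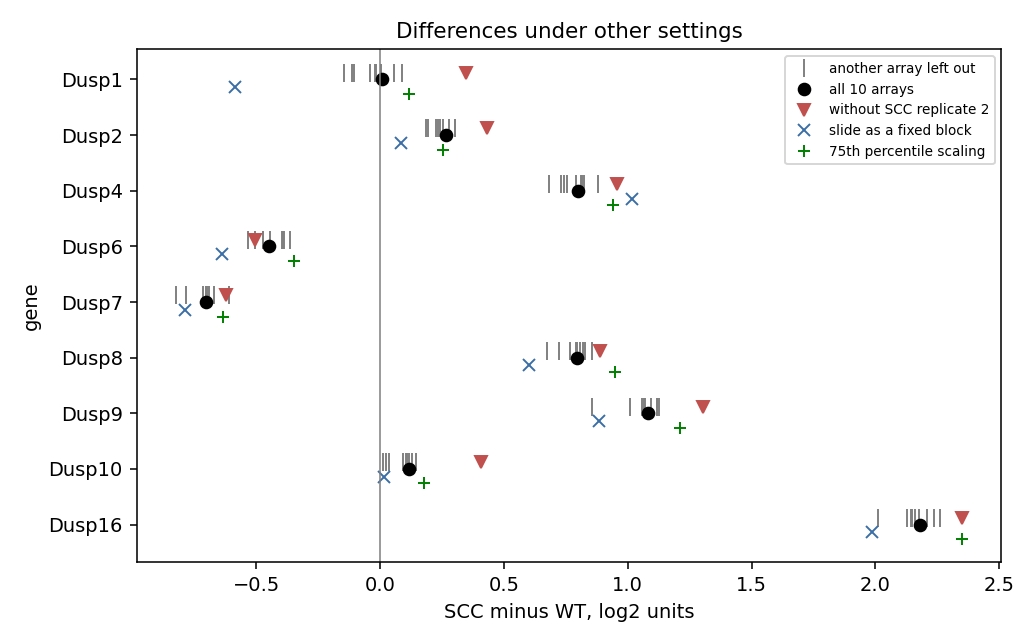
Differences (SCC minus WT, log2 units) of the brightest probe of 9 genes are drawn with all 10 arrays (black circles), with 1 array left out (grey ticks, and red triangles without SCC replicate 2), with slide as a fixed block (blue crosses) and with scaling to the 75th percentile (green plus signs). Dusp1 lies on both sides of 0, Dusp10 moves from 0.12 to 0.41 without SCC replicate 2, and Dusp16 stays between 1.99 and 2.35.

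The genes around these phosphatases were then examined by list, each gene on its brightest probe. The counts of each list stand beside 22.4% of all tested probes that rose and 26.6% that fell. The median over all tested probes was -0.090. Among the MAP kinases that the members act on, 3 of 10 rose and 4 fell, with a median of -0.15. Mapk13, which encodes p38 delta, rose by 2.19 (limma adjusted p = 2.51e-05) and Mapk8, which encodes JNK1, rose by 0.36 (limma adjusted p = 0.0250). Mapk12, which encodes p38 gamma, fell by 1.44 (limma adjusted p = 4.16e-05), and Mapk10, which encodes JNK3, fell (limma adjusted p = 0.0214), from 5.85 to 9.14 on the WT arrays to 3.58 to 7.25 on the SCC arrays. Mapk10 was well above background on only 2 of 5 SCC arrays, so its difference of -2.63 is not a measured size. It was tested only through the WT arrays, where it is higher. Its p-value and its place in the counts are therefore no independent support for a fall. Of 8 cardiac muscle markers 7 fell and 0 rose, with means of 9.37 to 13.02 on the WT arrays and 7.24 to 9.35 on the SCC arrays, and their part in these differences was not tested. Of the 7 MAP kinase kinases, which phosphorylate the MAP kinases, 4 rose, 0 fell and the median was 0.43, with Map2k1 (MEK1), which activates ERK, at 0.96 (limma adjusted p = 0.000104) and Map2k3, which activates p38, at 0.85 (limma adjusted p = 0.0162).

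Of 8 other phosphatases of MAP kinases 2 rose and 2 fell, with a median of -0.034. These counts are near the shares over all tested probes, 22.4% and 26.6%. Ppp2ca and Ppp2cb, the catalytic subunits of protein phosphatase 2A, rose by 0.93 and 0.35, and Ptprr, a tyrosine phosphatase of ERK and p38, fell by 1.68 (limma adjusted p = 0.000583). Ppm1a, a phosphatase of p38 and JNK pathway kinases, fell by 0.31 (limma adjusted p = 0.0400).

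The atypical dual specificity phosphatases, small relatives that lack the MAP kinase binding domain of the 10 members, had 12 of 16 genes tested, of which 4 rose and 4 fell with a median of -0.19. Dusp14, also called MKP-6, rose by 1.20 (limma adjusted p = 0.0395), from 11.61 to 12.19 on the WT arrays to 11.27 to 13.69 on the SCC arrays, with SCC replicate 2 again lowest. Dusp13 rose (limma adjusted p = 0.00509), from 1.84 to 4.40 on the WT arrays to 4.47 to 7.93 on the SCC arrays. It was well above background on 3 of 5 WT arrays, so the size of its difference, 3.14, rests in part on values near background. Dusp13 was tested only through the SCC arrays, where it is higher. Its p-value and its place in the counts are therefore no independent support for a rise. Dusp18 fell by 1.07 (limma adjusted p = 0.0131) and Dusp26, known from nervous and muscle tissue, fell by 2.60 (limma adjusted p = 0.0105).

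ERK feedback and output genes, the group to which Dusp6 belongs by function, had a median of -0.46, with 4 of 13 tested genes higher and 7 lower. Spry1, a feedback inhibitor of receptor tyrosine kinase signalling, fell by 1.65 (limma adjusted p = 0.000839), and Etv5, an ETS transcription factor, fell by 1.77 (limma adjusted p = 0.00376). Its paralog Etv4 rose by 1.70 (limma adjusted p = 0.000120), and Fosl1, an AP-1 subunit, rose (limma adjusted p = 0.00104), from 2.53 to 4.57 on the WT arrays to 5.54 to 7.76 on the SCC arrays. Fosl1 was well above background on 1 of 5 WT arrays, so its difference of 3.09 is not a measured size. It was tested only through the SCC arrays, where it is higher. Its p-value and its place in the counts are therefore no independent support for a rise.

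Immediate early genes, the class of Dusp1, split in direction, with 6 of 15 higher, 5 lower and a median of -0.27. Atf3 rose by 2.20 (limma adjusted p = 0.0119) and Egr2 by 1.40 (limma adjusted p = 0.0300). On SCC replicate 2, Atf3 at 9.27 lay within the WT range of 9.24 to 9.76, and Egr2 at 9.79 lay below the WT range of 9.97 to 10.50. Jun fell by 1.67 (limma adjusted p = 1.79e-06), with SCC arrays between 11.34 and 11.65 and WT arrays between 13.09 and 13.30, and Ccn1 fell by 1.26 (limma adjusted p = 9.88e-05). Most markers of several cell types of the lung also fell. The mean over the endothelial markers was 11.33 to 12.31 on the SCC arrays and 13.51 to 13.69 on the WT arrays. Of the alveolar type 1 markers 6 of 7 fell and 1 rose (median -2.21). Of the fibroblast and smooth muscle markers 7 of 10 fell and 1 rose (median -1.03). Of the B cell markers 5 of 6 fell and 0 rose (median -1.63). The alveolar type 2 markers had 5 of 8 lower and 0 higher (median -0.63), and the cardiac muscle markers 7 of 8 lower and 0 higher (median -2.82). Their part in the differences of Dusp6, Dusp7 and the genes of these lists was not tested.

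**Figure D5:**
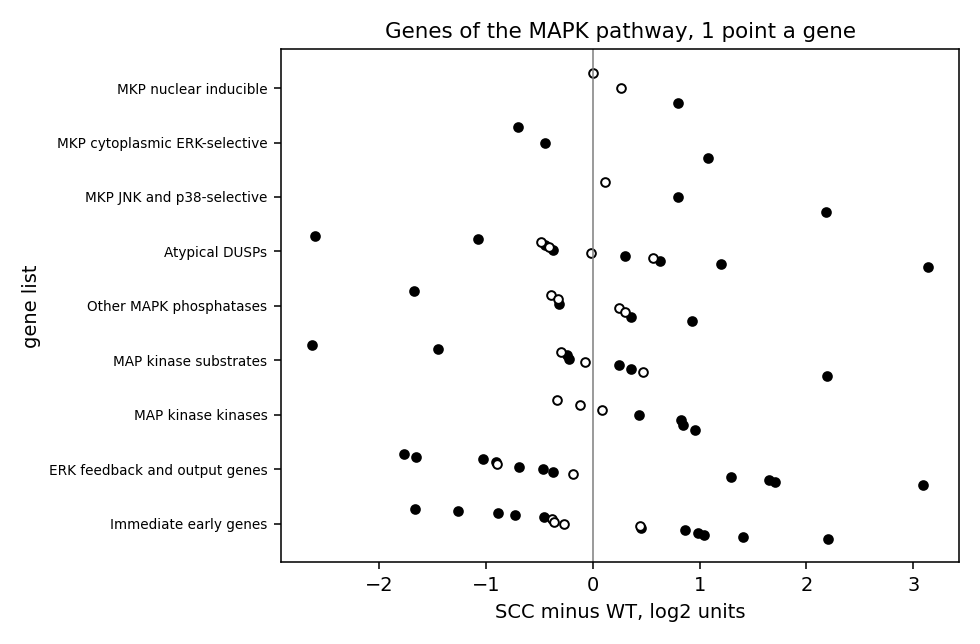
Each point is 1 gene on its brightest probe, placed by its difference (SCC minus WT, log2 units) in the row of its list, filled where the limma adjusted p was below 0.05, with the vertical offset only separating points. The 9 MAPK phosphatases occupy the top 3 rows, with Dusp16 at 2.18 farthest right, and among the lists the MAP kinase kinases have the highest median of the lower 6 rows, at 0.43.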

How the data were processed

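RNA from 5 WT lungs and 5 SCCs had been hybridised to single-colour Agilent arrays, grouped here by sample title. Scans had been read with Agilent Feature Extraction (version 12 in the submitters' processing notes). Per the file headers, each deposited scanner file gives the background-subtracted processed intensity of every spot, on a linear scale. A second table deposited by the authors holds log2 values. It matched log2 quantile-normalized intensity (r of at least 0.9999 on every array) and was used to choose probes and as an alternative.

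Control spots and flagged outliers were dropped, replicate spots of a probe were averaged as log2 intensity, and the 41174 probes were quantile-normalized, after the authors' methods. Probes well above background on at least 4 of 5 arrays of a group were tested (30374). The 2 groups were compared on all 10 arrays without covariates (lmFit and eBayes of limma 3.58.1, R 4.3.3, two-sided) with Benjamini-Hochberg adjustment over all of them. The threshold was an adjusted p of 0.05, with counts of at least 2-fold differences beside it. The methods' analysis of variance was an alternative. Single genes were also compared by exact two-sided permutation over all splits of the arrays. On data simulated for SCC against WT over 30374 probes, 159 of 200 probes changed by 2 log2 units (79.5%) were recovered with 1 false call. The simulated noise was independent and of equal spread in both groups, and 49.0% of probes passed in the data. The simulation checks the code and does not measure the error of this comparison.

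Symbols came from RefSeq (GRCm38.p6) by accession, for 28223 probes (68.5%). Promoter windows came from RefSeq in that build. The deposited files use another build, and no coordinates of theirs are given.

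The members and lists were chosen with earlier results of these data known. Named were all members, Krt5, Trp63 and Pecam1, and from each pathway list up to 2 genes with the largest positive and up to 2 with the largest negative difference past the test. Xist and the array with the most spots above background were named after their values were seen. Alternatives covered the scaling, normexp on median signals (offset 50), the deposited matrix, the filter on dim probes, slide and replicate blocks, array weights, the choice of probe and each array left out. The number of arrays limits the precision.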

Additional observations from a re-analysis of the deposited data

Results flagged for a closer look

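In 44 sets of 5 arrays (the 12 probes and the means of the 3 member groups, the immediate early genes and some of the marker lists, in WT and in SCC), the gap between the most extreme array and its neighbour was divided by the range. Chance puts about 1 in 20 such sets past the critical value of 0.71. Here 7 were past it, all with SCC replicate 2 low. The members were Dusp1 (12.49, next array 13.95, gap 0.745 of the range), Dusp2 (10.75, next 11.50, gap 0.788) and Dusp10 (7.57, next 8.77, gap 0.754). Among the list means, these were squamous (11.89, next 15.00, gap 0.897), neutrophil (9.10, next 11.36, gap 0.910), macrophage (11.21, next 12.30, gap 0.845) and proliferation (10.05, next 11.05, gap 0.744). All 7 are values of the same array. SCC replicate 2 was also the highest tumor in the means over the endothelial markers (12.31, others 11.33 to 11.63), the alveolar type 1 markers (14.47, others 13.82 to 14.12), the alveolar type 2 markers (15.31, others 14.71 to 14.85) and the cardiac muscle markers (9.35, others 7.24 to 8.02), of which only the endothelial mean was among the 44 sets, with a gap of 0.693 that was not past the critical value. The differences of Dusp1, Dusp2 and Dusp10 without this array are given beside each gene.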

How the results depend on the processing

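Dusp16 passed in every setting run, with differences of 1.20 (normexp) to 2.35. With normexp the dimmer Dusp8 probe A_51_P263246 differed more, at -1.41. Of 9 members, 1 passed with slide as a fixed block, where 12.6% of all tested probes did. Leaving out 1 array gave 5 to 8, the 8 without SCC replicate 2, where 58.8% of all tested probes passed. Members differing by at least 2-fold were 1 with normexp, with slide as a fixed block, with the mean of all probes and with the brightest probe over WT arrays, and 1 to 2 with 1 array left out. With array weights they were Dusp16 and Dusp4 (1.03), and Dusp9 at 0.99 was not among them. Over all probes 6954 were called, 14878 by adjusted p alone, 3969 with normexp, 2989 with slide as a fixed block, and 6385 to 8135 with 1 array left out. Scaling to the 75th percentile moved the median difference from -0.090 to 0.032, and called probes that were higher from 43.3% to 53.2%. Dusp1 reversed to -0.59 with slide as a fixed block and ran from -0.14 to 0.35 with 1 array left out. Dusp8 was -0.68 with the mean of all probes and -1.59 and -1.25 on its dimmer probes, and Dusp9 was -0.23 with the brightest probe over WT arrays, which is its dimmer probe. Beyond the slide block, Dusp6 also missed the threshold with array weights (adjusted p = 0.0502) and without the filter on dim probes (0.0557). Among members that passed, differences that kept their sign but moved by over 1.5 times were 0.53 for Dusp4, 0.58 for Dusp9 and 1.20 for Dusp16 with normexp, 0.43 for Dusp9 with the mean of its probes and -0.47 for Dusp7 with array weights. Dusp2 and Dusp10 passed with array weights, both at 0.44, in a fit where 7721 of all probes were called, against 6954 without weights. Without SCC replicates 2 and 5 together, chosen after seeing the data, Dusp2 was 0.46 and Dusp10 0.50, both past the test as were 65.0% of all tested probes, against 49.0% with all arrays. Same-numbered samples had correlations of -0.10 to 0.0087, so the numbers were not taken as pairs. With a replicate block 5 members passed, Dusp6 not (-0.45, adjusted p = 0.0704), and 6571 probes were called. Slide as a random block left 6 members. The cause of these changes was not tested.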
